A study of Bos taurus with 6 samples.

Results

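T-cell subcluster 4 is the smallest of the 4 groups into which the authors divided the T-cells of bovine distal pulmonary arteries (dPAs), and it held 166 of the 877 T-cells. Its members were taken from the cluster column of the deposited cell table, as every cell with the value 4. Subclusters 1, 2 and 3 held 270, 268 and 173 cells. The dPAs, vessels under 2 mm across, were dissected from the lungs of male Holstein dairy calves of 2 weeks of age, digested to single cells and sequenced in droplets. Control (CO) calves were compared with pulmonary hypertensive (PH) calves, which were exposed to hypoxia for 14 days. The labels name 3 CO and 3 PH calves, and the T-cells of 5 calves, CO 1, CO 2 and PH 1 to PH 3, are described here. The third control was not analysed here.

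T-cells carry an antigen receptor on their surface, and CD3E is one of the invariant chains that pass the receptor's signal into the cell. ZAP70 is a kinase that is recruited to those chains and starts the signalling cascade. In the pulmonary artery wall, T-cells lie mainly in the adventitia, where they can secrete cytokines that act on fibroblasts and macrophages. The expression matrix carries no gene names, and its rows are therefore described here by position, as unnamed genes. CD3E, ZAP70 and the markers of other cell types could not be looked up, so the name T-cell rests on the authors' annotation.

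Subcluster 4 held 9 cells in CO 1, 52 in CO 2, 54 in PH 1, 48 in PH 2 and 3 in PH 3. CO 2 alone gave 85.2% of its control cells. The replicate throughout is the calf, and values of CO 1 and PH 3 rest on few cells. No barcode was shared between calves. In its 166 cells the number of unique molecular identifiers (UMIs, each standing for 1 captured RNA molecule) ran from 544 to 15824 with a median of 3951.5. The expression values are on the scale ln(corrected count + 1). A corrected count is a UMI count that the authors' SCTransform step adjusted for the depth of the cell. Of the 16514 rows, 11164 were above 0 in at least 1 cell of subcluster 4.

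The share of T-cells that fell in subcluster 4 was 18.0% in CO 1, 11.9% in CO 2, 34.4% in PH 1, 22.1% in PH 2 and 18.8% in PH 3. The lowest PH share was therefore only just above the highest CO share. The 95% exact binomial interval, which covers counting error only, was 8.58 to 31.4% in CO 1, 9.02 to 15.3% in CO 2 and 27.0 to 42.4% in PH 1. It was 16.8 to 28.2% in PH 2 and 4.05 to 45.6% in PH 3, where 3 of 16 T-cells belonged to the subcluster. CO calves averaged 14.9% ± 4.31 (SD, n = 2), and PH calves averaged 25.1% ± 8.23 (SD, n = 3). The difference of 10.1 percentage points had p = 0.2 in a two-sided exact permutation test. The smallest p that 2 against 3 calves can give is 0.1. The test could therefore not reach a p under 0.05 and leaves the difference undecided. Without PH 1 the difference was 5.49 points. It was 21.6 points among cells of middle depth (from the 25th to the 75th percentile of UMIs over all T-cells), where PH 3 had 1 of 2 cells. These are shares of the sequenced T-cells, and a rise of 1 subcluster cannot be told apart from a fall of the others.

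Cells of subcluster 4 tended to hold fewer RNA molecules than the other T-cells of the same animal. The median number of UMIs per cell was 7202 in CO 1, 5002 in CO 2, 3087 in PH 1, 3131.5 in PH 2 and 7452 in PH 3. The medians of subclusters 1 to 3 together were 6674, 5812, 5154, 3943 and 10990 in the same order. Subcluster 4 was thus lower in 4 of 5 calves, with CO 1 the exception, and the mean difference was -1340 UMIs ± 1534 (SD, n = 5). This and the further comparisons with subclusters 1 to 3 are descriptions with no test, because the authors formed the subclusters from the same cells. Taken alone, subcluster 2 had a lower median than subcluster 4 in CO 1 (5921.5) and PH 1 (2573). Its median was higher in CO 2 (5476.5) and PH 2 (3225). In PH 3 the other T-cells were all of subcluster 1.

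The number of genes with a UMI was also lower in 4 of 5 calves. Its median in subcluster 4 was 2268 in CO 1, 1453.5 in CO 2, 996 in PH 1, 983 in PH 2 and 1815 in PH 3, against 2097, 1627, 1508, 1262 and 2593 in the other T-cells. The calf differences averaged -314 genes ± 357 (SD, n = 5). In PH 1, subcluster 4 showed 996 genes at a median of 3087 UMIs, while subcluster 2 showed 1223 genes at a median of 2573 UMIs. The 50 most abundant rows took 28.6% of the corrected counts of subcluster 4 in CO 1, 37.9% in CO 2, 36.0% in PH 1, 41.6% in PH 2 and 34.5% in PH 3. That share was higher than in the calf's other T-cells in 4 of 5 calves, by 2.25 points ± 2.27 (SD, n = 5) on average.

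The percentage of UMIs from mitochondrial genes, a common sign of cell stress or damage when high, was low in subcluster 4. Its median was 1.77% in CO 1, 3.06% in CO 2, 2.27% in PH 1, 3.22% in PH 2 and 1.93% in PH 3, against 2.66, 3.58, 2.92, 4.62 and 1.55% in the other T-cells. In CO 1, CO 2, PH 1 and PH 2 it was the lowest median of the 4 subclusters. In PH 3, where 3 cells stood beside 13, it was higher. The mean difference was -0.615 points ± 0.648 (SD, n = 5).

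**Figure D1:**
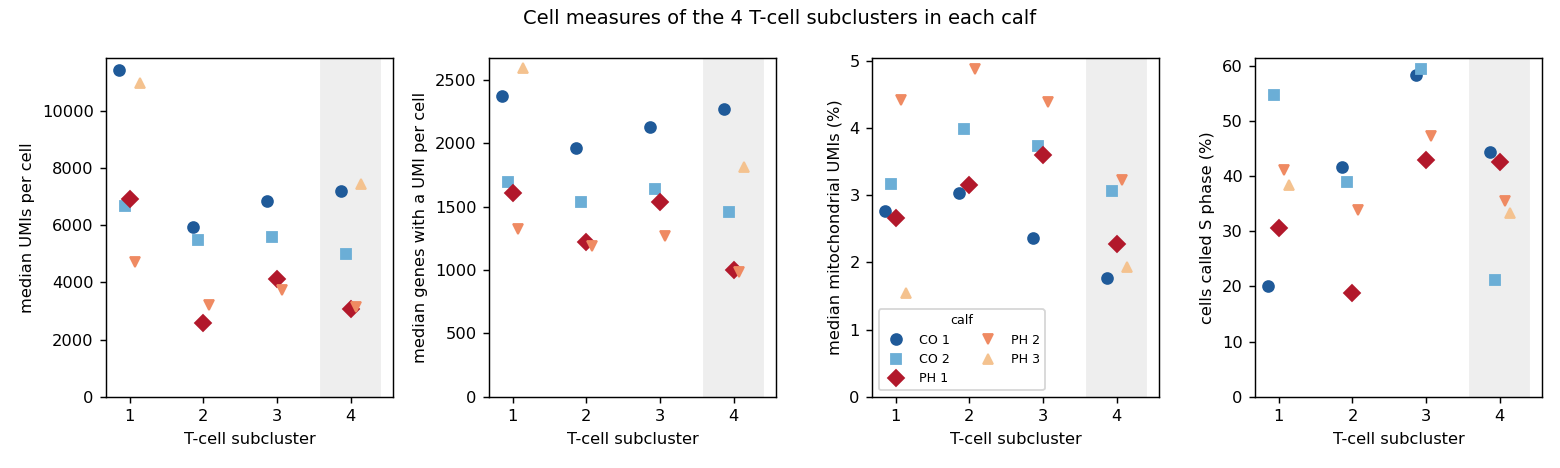
Median UMIs, median genes with a UMI, median percentage of mitochondrial UMIs and the percentage of cells called S phase (vertical axes) in each T-cell subcluster (horizontal axis, subcluster 4 shaded). Each point is 1 calf, and PH 3 had cells in subclusters 1 and 4 only. In the third panel the points of CO 1, CO 2, PH 1 and PH 2 are lowest in subcluster 4.

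The cell cycle calls, which the authors assigned from expression scores for DNA synthesis (S) and division (G2/M), had no common direction. In subcluster 4, 4 of 9 cells were called S phase in CO 1, 11 of 52 in CO 2, 23 of 54 in PH 1, 17 of 48 in PH 2 and 1 of 3 in PH 3. In CO 2 the share of 21.2% was below the 50.9% of its other T-cells. In PH 1 the share of 42.6% was above the 26.2% of its other T-cells. Such calls rest on relative scores and do not by themselves show that a cell was dividing.

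A pair of unnamed rows, called A and B here, was detected in most cells of subcluster 4 and in few other T-cells, and another pair, C and D, showed the reverse. They were chosen as the rows with the widest gaps between subcluster 4 and the nearest of the other subclusters, averaged over the 4 calves with at least 5 cells (CO 1, CO 2, PH 1 and PH 2). Their gaps are therefore a description. They are rows 10072 (A), 5286 (B), 1310 (C) and 7909 (D) of the matrix.

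Row A was above 0 in 118 of the 166 cells (71.1%) and in 11 of the 711 other T-cells (1.55%). In subcluster 4 it was detected in 7 of 9 cells in CO 1 (77.8%), 43 of 52 in CO 2 (82.7%), 32 of 54 in PH 1 (59.3%), 33 of 48 in PH 2 (68.8%) and 3 of 3 in PH 3. In PH 1 it was seen in 0 of the 103 cells of subclusters 1 to 3, and its highest share in any of these was 15.4%, in subcluster 1 of PH 3, from 2 of 13 cells. The mean ln value in subcluster 4 was 1.15 in CO 1, 1.21 in CO 2, 0.72 in PH 1, 0.84 in PH 2 and 1.1 in PH 3. Cells of subcluster 4 above 0 held a median corrected count of 3.

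Row B was above 0 in 113 of the 166 cells (68.1%) and in 32 of the other T-cells (4.50%). It was detected in 9 of 9 cells of subcluster 4 in CO 1, 38 of 52 in CO 2 (73.1%), 36 of 54 in PH 1 (66.7%), 27 of 48 in PH 2 (56.2%) and 3 of 3 in PH 3. Its mean ln value there was 1.26, 0.77, 0.86, 0.63 and 0.96 in the same order. The highest share of row B elsewhere was 20% in subcluster 1 of CO 1, which is 1 of 5 cells. On average the share in subcluster 4 was 68.8 points above the nearest other subcluster for row A and 65.0 points for row B.

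Row C was near absent from subcluster 4, at 2 of 166 cells (1.2%), and present in 412 of the 711 others (57.9%). It was above 0 in 0 of 9 cells in CO 1, 1 of 52 in CO 2, 0 of 54 in PH 1, 1 of 48 in PH 2 and 0 of 3 in PH 3. The count of 0 allows a share of up to 33.3% in CO 1 and up to 5.56% in PH 1 (3 counts of the cells). In the 3 other subclusters of CO 1, CO 2, PH 1 and PH 2, its share ran from 30.8 to 91.7%.

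Row D was above 0 in 5 cells of subcluster 4 (3.01%) and in 503 of the other T-cells (70.7%). It was found in 2 of 9 cells in CO 1, 1 of 52 in CO 2, 2 of 54 in PH 1, 0 of 48 in PH 2 (a share of up to 6.25%) and 0 of 3 in PH 3. In the 3 other subclusters of CO 1, CO 2, PH 1 and PH 2 its share ran from 35.7 to 100%. The mean gap to the nearest other subcluster was -51.1 points for row C and -46.1 points for row D.

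**Figure D2:**
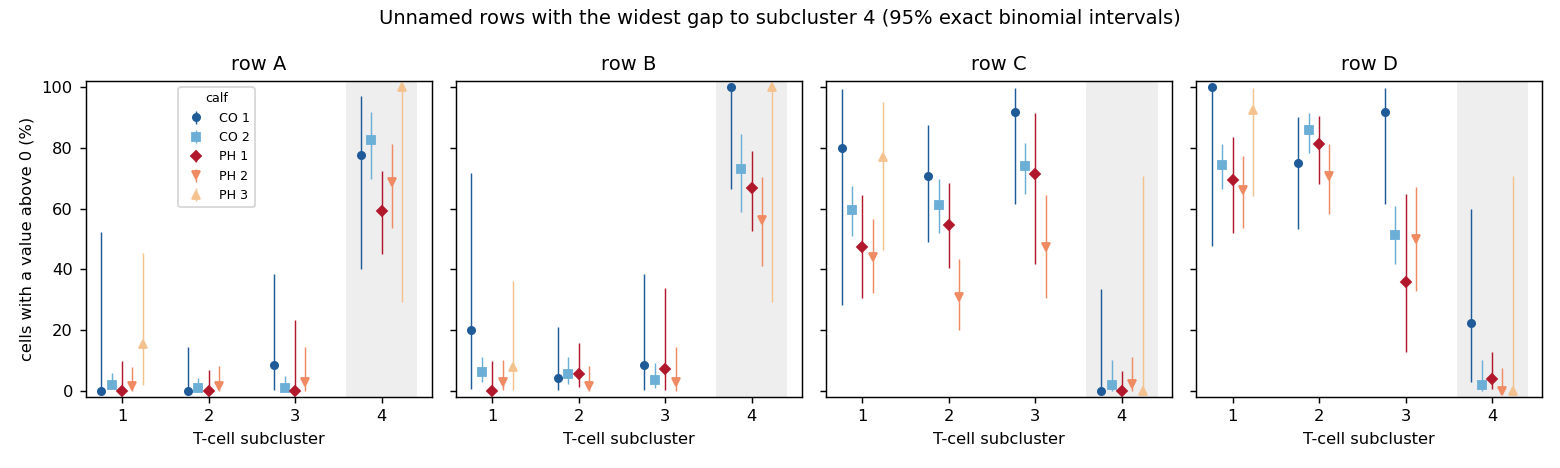
Percentage of cells with a value above 0 (vertical axis) for rows A, B, C and D in each T-cell subcluster (horizontal axis, subcluster 4 shaded). Each point is 1 calf and each bar its 95% exact binomial interval. In subcluster 4, row A was detected in at least 59.3% of the cells of each calf and row B in at least 56.2%.

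Since cells of subcluster 4 were shallower, the 4 rows were also read in cells of middle depth, between the 25th and the 75th percentile of all T-cells (3107 to 7300 UMIs). Row A was then above 0 in 29 of 32 cells of subcluster 4 and 0 of 207 other T-cells in CO 2. It was above 0 in 17 of 23 against 0 of 26 in PH 1, and in 19 of 23 against 2 of 106 in PH 2. Row C was above 0 in 1 of 32 against 139 of 207 in CO 2, 0 of 23 against 18 of 26 in PH 1, and 1 of 23 against 54 of 106 in PH 2. Row B was above 0 in 25 of 32 against 4 of 207 in CO 2. PH 1 had 14 of 23 against 1 of 26, and PH 2 had 15 of 23 against 3 of 106. Row D was above 0 in 1 of 32 against 144 of 207 in CO 2. PH 1 had 1 of 23 against 22 of 26, and PH 2 had 0 of 23 against 76 of 106. The gaps of all 4 rows were thus present among cells of like depth in these 3 calves. CO 1 and PH 3, with 4 and 1 such cells of subcluster 4, are not described. The correction for depth can also raise a value above 0 in a cell with few UMIs, and 83 cells of subcluster 4 (50%) had more genes above 0 after it than before, against 32.9% of the other T-cells. All such cells had at most 4383 UMIs.

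Most cells of subcluster 4 held row A, row B or both. Both were above 0 in 82 cells (49.4%), only A in 36, only B in 31 and neither in 17 (10.2%). Of the 711 other T-cells, 4.92% held A or B and 8 cells (1.13%) held both. By calf, both rows were above 0 in 7 of 9 cells in CO 1, 32 of 52 in CO 2, 21 of 54 in PH 1, 19 of 48 in PH 2 and 3 of 3 in PH 3. Cells with both rows had a median of 5432 UMIs and those with neither 2885, so depth moved with the number of the 2 rows detected, and its part in that number was not tested.

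Rows C and D added the reverse pattern in the same cells. C or D was above 0 in 7 of the 166 cells (4.22%) and in 589 of the 711 others (82.8%). The combination of A or B with neither C nor D was met by 144 cells of subcluster 4 (86.7%) and by 10 other T-cells (1.41%). Among the calves it was met by 7 of 9 cells in CO 1, 48 of 52 in CO 2, 45 of 54 in PH 1, 41 of 48 in PH 2 and 3 of 3 in PH 3.

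Beyond these rows, more rows were lower than higher in subcluster 4 over all cells, and fewer were lower than higher among cells of middle depth. In CO 1, CO 2, PH 1 and PH 2 alike, 123 rows were detected in a larger share of its cells than in each of the 3 other subclusters, and 209 in a smaller share. Counted the same way, subcluster 1 had 365 higher and 70 lower rows, subcluster 2 had 89 and 83, and subcluster 3 had 193 and 54. These counts depend on CO 1, which gave 5 cells of subcluster 1 and 9 of subcluster 4. Without it, 214 rows were higher and 748 lower in subcluster 4. Without PH 1 the counts were 229 and 369, and without PH 2 they were 244 and 348. Without CO 2, 175 rows were higher and 274 lower. Fewer calves leave fewer conditions to meet, so these counts could only rise, by an amount that differed with the calf left out. Among cells of middle depth, which left CO 2, PH 1 and PH 2 with at least 5 cells of the subcluster, 267 rows were higher and 185 lower. The same 3 calves gave 214 and 748 over all cells, so the excess of lower rows was not seen among cells of middle depth. That choice also left fewer cells, with 26 other T-cells in PH 1 against 103 over all depths. The parts of depth and of cell number in these counts were not tested.

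Few of these rows differed by much. The gap was over 10 points in all 4 calves for 26 higher and 18 lower rows, over 20 points for 6 and 3, and over 30 points for 4 and 2. Both of the rows over 50 points were higher, and they are A and B. Over the 6328 rows detected in at least 5% of T-cells, the share was lower in subcluster 4 than in subclusters 1 to 3 on average for 63.4%, with a median of -1.95 points. Detection was thus generally lower in this subcluster, and the part of that shift in the number of lower rows was not tested.

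The third to the tenth rows in order of gap were less exclusive than A and B. The third higher row was above 0 in 72.9% of the cells of subcluster 4 and in 19.0% of the others, and reached 41.7% in another subcluster of 1 calf. The eighth was the most widely detected, in 88.0% of the cells against 19.8%, and it reached 71.4% elsewhere. The seventh was nearly restricted to the subcluster, at 26.5% against 1.41%, yet varied between calves from 16.7% to 77.8% of the subcluster's cells, the latter in CO 1. Of the lower rows, the third was above 0 in 0 of 166 cells, which allows a share of up to 1.81%, and in 323 of the 711 others (45.4%). The sixth was at 0.602% against 49.2%.

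Some rows set subcluster 4 apart together with another subcluster, both lying over 10 points above or below the other two in all 4 calves. With subcluster 3 it shared 6 such higher and 6 such lower rows. With subcluster 2 it shared 1 higher and 10 lower rows, and with subcluster 1 it shared 1 higher and no lower row. Complete restriction was rare. Although 286 rows were above 0 in subcluster 4 only, 237 of them were seen in 1 cell, and the widest was seen in 20 cells (2 in CO 1, 5 in CO 2, 11 in PH 1, 2 in PH 2 and 0 in PH 3).

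**Figure D3:**
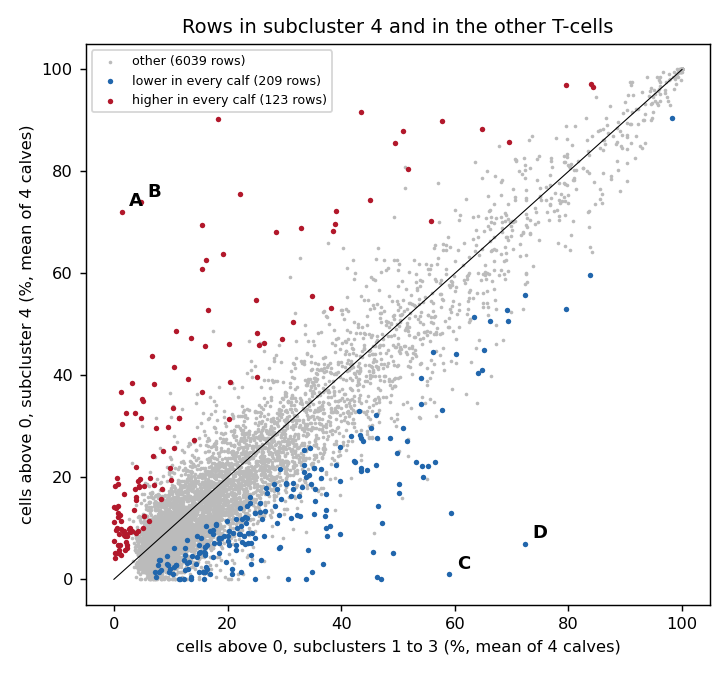
Share of cells above 0 in subcluster 4 (vertical axis, %, mean of CO 1, CO 2, PH 1 and PH 2) against the same share in subclusters 1 to 3 (horizontal axis) for each row plotted. The 123 rows higher and the 209 rows lower than each other subcluster in every one of these calves are coloured, and A to D are marked.

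PH 3, with 3 cells, had no part in choosing these rows, but its cells were part of the authors' clustering. There, 70 of the 123 higher rows were above the calf's other T-cells and 22 were below, with a median gap of 15.4 points. Of the 209 lower rows, 144 were below and 55 above, with a median gap of -15.4 points. In the 4 calves used for the choice, the median gap of the higher rows ran from 9.23 points in PH 2 to 23.6 in CO 1. That of the lower rows ran from -9.96 in PH 2 to -17.9 in CO 1. The other T-cells of PH 3 were all of subcluster 1, and the comparison there is with that subcluster alone. The same counts over all rows of PH 3 are not given here. Its cells of subcluster 4 held fewer genes (a median of 1815 against 2593), and the part of depth in these counts was not tested.

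The profile of subcluster 4 resembled itself across animals. For each calf and subcluster, the mean ln value of each of the 6328 rows was taken as its deviation from the calf's mean, and these deviations were correlated between calves. Between the subclusters 4 of different calves, Pearson's r was 0.43 to 0.68 over 6 pairs of calves, with a median of 0.56. With subcluster 1 of another calf it was -0.43 to -0.02, with subcluster 2 it was -0.29 to 0.02, and with subcluster 3 it was -0.19 to -0.04, each over 12 pairs. These correlations run across rows, and rows are no independent replicates. The clustering had used the same rows and cells. Deviations from a calf's mean also offset one another across its subclusters, which by itself lowers r between different subclusters. The likeness of subclusters 1, 2 and 3 with themselves is not given here, so the values are a description. Within each of the 4 calves, the mean profile of subcluster 4 lay nearest to that of subcluster 2, at a root mean square difference of 0.20 in CO 1, 0.12 in CO 2, 0.14 in PH 1 and 0.12 in PH 2 on the ln scale. Subcluster 3 also lay nearest to subcluster 2 in each of these calves (0.19, 0.12, 0.15 and 0.12 in the same order). The nearness was therefore not particular to subcluster 4.

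Single cells were then compared with mean profiles made from the other calves only. Of the cells of subcluster 4, 8 of 9 in CO 1, 44 of 52 in CO 2, 36 of 54 in PH 1, 35 of 48 in PH 2 and 3 of 3 in PH 3 were nearest to the profile of subcluster 4. That is 126 of 166 cells (75.9%), against 18 of the 711 other T-cells (2.53%). With profiles made only from calves of the other group, the counts were 124 (74.7%) and 26 (3.66%). Most cells of subcluster 4 were thus also nearest to its profile from calves of the other group. The authors' clustering had pooled all calves and used the same values, so this agreement is a description and no independent support.

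The 40 cells of subcluster 4 that fell elsewhere went mostly to subclusters 1 and 2. They had a median of 2405.5 UMIs against 4233 in the 126 others. Row A or B was above 0 in 32 of them (80.0%), against 117 of the others (92.9%). A low-depth cluster of the authors' finer clustering held 47.5% of the 40 cells and 17.5% of the 126. Depth thus moved with the assignment, and its part was not tested.

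**Figure D4:**
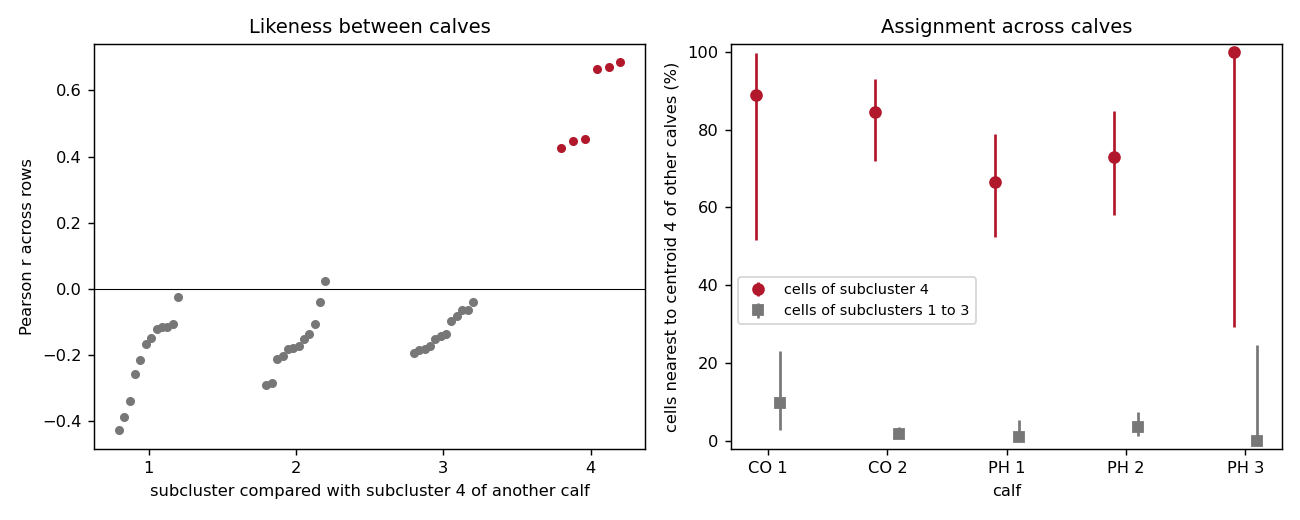
Left, Pearson's r across rows between subcluster 4 of 1 calf and each subcluster of another calf (each point 1 pair of calves), which is above 0.4 for pairs of subcluster 4 and below 0.1 for all other pairs. Right, percentage of cells nearest to the mean profile of subcluster 4 of the other calves, with 95% exact binomial intervals, for cells of subcluster 4 and of subclusters 1 to 3 in each calf.

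Within subcluster 4, the question was whether cells of PH calves differed from those of CO calves. For the 6 cell measures tested, 2 CO and 3 PH calves were too few for a p under 0.05, so the tests leave this undecided. The median number of UMIs averaged 6102 ± 1556 in the 2 CO calves and 4557 ± 2507 (both SD) in the 3 PH calves (two-sided exact permutation test, p = 0.6). Genes with a UMI averaged 1861 ± 576 and 1265 ± 477 (exact p = 0.3), and mitochondrial UMIs 2.41% ± 0.910 and 2.47% ± 0.670 (exact p = 1). The S score averaged -0.00670 ± 0.0110 in CO and 0.00265 ± 0.0348 in PH (exact p = 0.8), and the G2/M score 0.0238 ± 0.00804 and 0.0243 ± 0.00804 (exact p = 1). The share of cells called G1 averaged 11.5% ± 16.3 and 22.2% ± 9.62 (exact p = 0.6). All 6 Benjamini-Hochberg adjusted p-values were 1, the groups overlapped in each measure, and no p below 0.1 was possible with these calves. Leaving out 1 calf at a time moved the PH minus CO difference between -2993 (without PH 3) and -445 UMIs (without CO 1). For genes it moved between -1003 (without CO 2) and -189 (without CO 1).

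No row passed the test between PH and CO within subcluster 4. The mean ln value per calf was compared between CO 1 and CO 2 and PH 1 and PH 2 with limma, a linear model that shares the estimate of spread across rows, over 5453 rows. These rows were detected in 5% or more of the subcluster's cells. With Benjamini-Hochberg adjustment to p under 0.05, limma called 0 rows (0% of those tested), and the smallest adjusted p was 0.639. Before adjustment, p was under 0.05 for 46 rows that were higher in PH and for 289 that were lower. Most rows leaned the same way, 74.1% of them being lower in PH, with a median difference of -0.05 on the ln scale. After quantile normalisation of the calf means, these numbers were 213 higher and 208 lower.

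The count of 0 depended on single settings and above all on CO 2, which gave most of the control cells. With CO 2 left out, limma called 2058 rows, but then CO 1 with 9 cells stood alone and was assumed to vary like the others. Without CO 1 it called 3 rows, without PH 1 it called 1, and without PH 2 it called 1.

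To set the subcluster against the animal's other T-cells, the mean of subclusters 1 to 3 was subtracted in each calf before the same test, over 6243 rows. Again 0 rows were called (0%), with a smallest limma adjusted p of 0.921, and before adjustment p was under 0.05 for 68 rows higher in PH and 124 lower. The lean was smaller, with 56.7% of rows lower in PH and a median of -0.01.

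**Figure D5:**
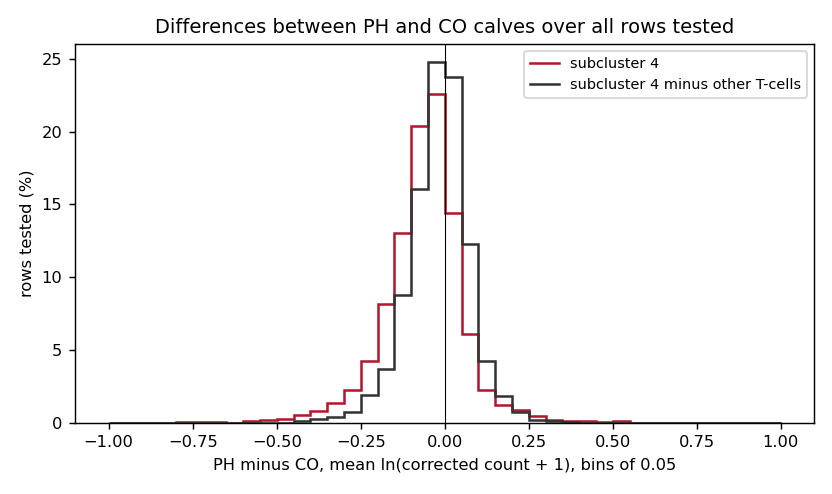
Distribution of the difference PH minus CO in mean ln(corrected count + 1) (horizontal axis, in bins of 0.05, with the outermost values placed in the end bins) over the rows tested (vertical axis, %). The curve for subcluster 4 itself is shifted to the left of 0, with a median of -0.05, and that for subcluster 4 minus the other T-cells has a median of -0.01.

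The rows that marked the subcluster did not pass the test either. Row A had a mean ln value of 1.18 in CO 1 and CO 2 and of 0.78 in PH 1 and PH 2, a difference of -0.40 (SE 0.17, limma adjusted p = 0.639). Both CO calves lay above both PH calves. Such a lack of overlap, in either direction, held for 2334 of the 5453 rows tested (42.8%). PH 3 with 3 cells, which was not in this fit, lay between the CO and the PH calves at 1.1. Row B had 1.01 in CO and 0.74 in PH, a difference of -0.27 (SE 0.19, limma adjusted p = 0.653), and its groups overlapped, with CO 2 below PH 1. Without CO 1, the difference in row B was -0.02 (limma adjusted p = 0.979). Without CO 2, and so with CO 1 as the lone control, the limma adjusted p was 0.0364 for row A and 0.00231 for row B. Rows C and D were above 0 in under 5% of the cells of subcluster 4 and so were not in this fit. With no filter beyond 3 cells, the difference in row D was -0.09 (limma adjusted p = 0.750). Relative to the other T-cells, the differences were -0.37 (SE 0.19) for A and -0.23 (SE 0.23) for B, and 0.29 (SE 0.18) for C and 0.12 (SE 0.25) for D, all with limma adjusted p-values of 0.921 or 0.941.

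Of the 123 higher rows, 114 were tested between PH and CO within subcluster 4, and 0 were called, and before adjustment p was under 0.05 for 1 row higher in PH and 7 lower. Their median difference was -0.06 (74.6% lower in PH), beside -0.05 (74.1% lower) over all rows tested. Of the 209 lower rows, 144 were tested and 0 were called, with a median of -0.04 (75% lower). Both lists thus lay close to the background of all rows. Relative to the calf's other T-cells, 82 of the higher rows were tested, with a median of -0.08 (74.4% lower in PH), and 207 of the lower rows, with a median of 0.03 (29.5% lower), beside -0.01 (56.7% lower) over all rows. Over all 123 higher rows, the median gap to the other T-cells was 0.25 in CO 1, 0.13 in CO 2, 0.15 in PH 1 and 0.09 in PH 2. For the 209 lower rows it was -0.17, -0.10, -0.11 and -0.09 in the same order. CO 2 thus lay between PH 1 and PH 2, and only CO 1, with 9 cells, lay beyond both. These lists were chosen on the same cells, so the values are given without a test of the lists.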

How the data were processed

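Per the submitters' processing notes, reads were processed with Cell Ranger 2.1.1 and Seurat 4.0 on the genome ARS-UCD1.2. The authors deposited a matrix of natural log values, ln(corrected count + 1) after SCTransform, pooled over calves. The deposited cell table gave the UMI count and the number of genes per cell, the percent of mitochondrial UMIs, the S and G2/M score and the subcluster. Corrected counts were recovered by exponentiation and were whole numbers within 1e-09, and their totals equalled the deposited ones in 877 of 877 cells. Uncorrected counts per gene were not used here. For this reason there was no count model and no thinning of cells to equal depth. No doublets were called. How the authors filtered cells and treated doublets is not given in the sources used here.

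Means per calf were tested with limma 3.58.1 (R 4.3.3, with trend and robust), single values with two-sided exact permutation tests over calves, and p-values were adjusted by Benjamini-Hochberg. Calves with at least 5 cells of subcluster 4 entered the row tests, and those with at least 3 the cell measures. The row test was checked on simulated data, drawn independently for each row and calf. How often it would find a real difference with these calves is not given here. Nothing in the labels links a CO calf with the PH calf of the same number. Alternatives left out each calf, changed the filter, scale, weights or normalization, or kept cells of middle depth. Rows A to D were chosen by the size of their gap, with the same sign in all 4 calves with at least 5 cells. The subcluster, the lists and the rules were chosen with earlier results of these data known.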

Additional observations from a re-analysis of the deposited data

How the results depend on the processing

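The 5 calves set the limits here, since a subcluster with 9 and 3 cells in 2 of them gives coarse means, and no depth per gene was used. The number of rows called between PH and CO in subcluster 4 was 0, and 1 to 2058 when each calf was left out in turn. It was 8 with the replicate block, 8 for rows above 0 in at least 20% of cells, 1 with no filter beyond 3 cells, 2 on the log2 scale with a pseudocount of 0.1 and 8 with a pseudocount of 1. It was 4 with cell numbers as weights, 3 with quantile normalization and 5 for cells of middle depth. It was 0 with calves of at least 3 cells, without trend and robust, and without the authors' low-depth cluster, an alternative chosen after seeing the data. The replicate block rests only on shared numbers of the calves. Across 5453 rows, the difference CO 1 minus CO 2 correlated with PH 1 minus PH 2 at r = 0.115, and rows are no independent replicates. Relative to the other T-cells, 0 to 2 rows were called with each calf left out and 0 otherwise, the block included. At an unadjusted p under 0.05, the split in subcluster 4 was 155 higher and 273 lower with a pseudocount of 0.1, which moved the median of all rows to -0.18 on the log2 scale.

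The PH minus CO difference turned sign for 4 cell measures. With each calf left out it ran from -0.583 to 0.703 points for mitochondrial UMIs, -0.00429 to 0.0289 for the S score, -0.00518 to 0.00619 for the G2/M score and -0.855 to 22.2 points for G1. It was -0.0729 points for mitochondrial UMIs and -0.00219 for the G2/M score with means over cells, and -4.42 points for G1 in cells of middle depth. Leaving out each calf gave 175 to 244 higher and 274 to 748 lower rows, and cells of middle depth, over 3 calves, gave 267 higher and 185 lower rows. Relative to the other T-cells, row A turned to 0.0671 with a pseudocount of 0.1. Row B ran from -0.467 to 0.00670 with each calf left out, and was 0.58 with a pseudocount of 0.1 and 0.0664 with 1. Row D was -0.0811 with calves of at least 3 cells, -1.09 and -0.12 with the pseudocounts of 0.1 and 1, and -0.0917 with quantile normalization. The causes were not tested.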
